A study of Mus musculus with 14 samples.

Results

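The genes followed here encode 9 proteins of the smooth muscle contractile apparatus, *Acta2*, *Actg2*, *Myh11*, *Myl9*, *Cnn1*, *Cnn2*, *Tagln*, *Tpm1* and *Tpm2*, out of 23298 genes measured in mouse embryonic stem (ES) cells. They were chosen by the measured levels of *Cnn2*, *Myl9* and *Acta2*, whose pattern over XX and XY lines differed between reciprocal crosses, so that the values of these 3 genes are given as a description with no test, while the other 6 were tested. RNA was sequenced from 14 ES cell lines, each derived from a single F1 blastocyst of C57BL/6J and CAST/EiJ mice. BC lines had a C57BL/6J mother and CB lines a CAST/EiJ mother, and there were 3 BC XX, 3 BC XY, 2 BC XO, 3 CB XX and 3 CB XY lines. All lines are F1 hybrids of both strains, and the XO lines lack 1 sex chromosome. All were undifferentiated and had been grown with LIF on inactivated mouse embryonic fibroblasts. These fibroblasts were depleted in consecutive steps before RNA was isolated. The strain that gave a line its X chromosome differs between BC XY and CB XY lines, and 2 XO lines give that group little replication. Which strain's X the XO lines kept is not given in the sources used here.

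Values are reads per gene as the authors scaled them to a common depth, and all 9 genes passed the filter on low values that left 16261 genes for testing. Depth, with the smallest step between the values of a line counted as a single read, was lowest in CB XY 2 at 11904390 and highest in BC XX 2 at 69646267 reads. At that depth the lowest values rest on few reads, 5 for *Actg2* and 6 for *Myh11* in CB XY 2. The labels were checked first with Y-linked RNA. *Uty* was at 945 to 2088 in the BC XY lines and at 1149 in CB XY 1, but at 19.6 in the line labelled CB XY 2 and 45.4 in the line labelled CB XY 3. It was at 66.1 to 195.5 in BC XX, 15.2 to 30.6 in BC XO and 12.8 to 57.8 in CB XX lines. *Ddx3y*, also Y-linked, was likewise higher in every BC XY line, at 1115 to 2268, than in every XX or XO line. It was at 327.9 to 1024 in BC XX, 101.3 to 102.4 in BC XO and 49.75 to 196.4 in CB XX lines. In CB XY lines *Ddx3y* ran from 27.02 to 1084. The Y-linked genes *Eif2s3y* and *Kdm5d* did not follow *Uty*. *Eif2s3y* was at 102 to 317 in BC XX and 40.8 to 255 in BC XY lines, and *Kdm5d* at 36.9 to 123 and 6.02 to 28.7. The main results that rest on CB XY lines are given with and without the lines labelled CB XY 2 and 3, because of their *Uty* level. ES cell markers were high in every line but not equal. The 10 markers summed to 98749 to 132341 in BC XX, 132766 to 169038 in BC XY and 133969 to 147619 in BC XO lines. In the other cross the sums were 129862 to 163495 in CB XX and 126705 to 147513 in CB XY lines. The BC XX sums thus lay below those of every BC XY and BC XO line, though the highest, 132341, was close to the lowest BC XY sum, 132766. Of the 10 markers, 0 were called between BC XX and BC XY lines, and 1 was lower in BC XX than in BC XO lines (limma, false discovery rate 0.05). Among 16261 genes, 927 and 758 were called in these comparisons in either direction.

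In smooth muscle, actin filaments of *Acta2* and *Actg2* are pulled by the heavy chain *Myh11*, whose activity is set by phosphorylation of the regulatory light chain *Myl9*. Calponins (*Cnn1*, *Cnn2*), transgelin (*Tagln*) and tropomyosins (*Tpm1*, *Tpm2*) lie along the actin filament and stabilise it or restrain the motor. Many of these genes are known targets of serum response factor, which binds CArG boxes with coactivators of the myocardin family, and several are also made by fibroblasts and myofibroblasts, where *Acta2* and *Tagln* mark the contractile state. *Cnn2* and *Tpm1* are less restricted to muscle than the others.

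Promoter sequence was read for the 6 members found in the RefSeq table (GRCm38.p6), *Acta2*, *Myl9*, *Cnn1*, *Cnn2*, *Tpm1* and *Tpm2*, from 250 bases before to 50 after the start of the gene. *Tagln*, *Actg2* and *Myh11* had no entry. The CArG box was searched as CC, then 6 bases that are each A or T, then GG, and also with 1 of these 6 inner bases replaced by C or G. The reverse complement of such a box has the same form, so a single search covers both strands. An unaltered box stands in 1.63% of 32851 promoters and a box with 1 inner C or G in 8.5%. The 3 promoters that hold a box are shown because they belong to the 3 genes whose patterns led to the list, and the boxes are in capitals.
Acta2 (chr19:34255324-34255623, minus strand): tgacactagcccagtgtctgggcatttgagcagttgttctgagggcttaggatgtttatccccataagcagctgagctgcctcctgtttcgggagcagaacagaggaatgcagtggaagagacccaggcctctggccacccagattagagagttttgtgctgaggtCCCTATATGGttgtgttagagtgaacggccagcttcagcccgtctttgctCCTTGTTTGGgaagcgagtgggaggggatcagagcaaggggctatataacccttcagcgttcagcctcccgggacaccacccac
Myl9 (chr2:156775214-156775513, plus strand): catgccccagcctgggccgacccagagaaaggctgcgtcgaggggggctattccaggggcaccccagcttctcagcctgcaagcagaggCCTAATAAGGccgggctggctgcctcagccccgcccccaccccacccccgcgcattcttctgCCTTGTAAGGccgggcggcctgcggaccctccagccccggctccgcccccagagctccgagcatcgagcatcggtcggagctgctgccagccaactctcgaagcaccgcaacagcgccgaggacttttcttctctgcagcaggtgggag
Cnn2 (chr10:79988350-79988649, plus strand): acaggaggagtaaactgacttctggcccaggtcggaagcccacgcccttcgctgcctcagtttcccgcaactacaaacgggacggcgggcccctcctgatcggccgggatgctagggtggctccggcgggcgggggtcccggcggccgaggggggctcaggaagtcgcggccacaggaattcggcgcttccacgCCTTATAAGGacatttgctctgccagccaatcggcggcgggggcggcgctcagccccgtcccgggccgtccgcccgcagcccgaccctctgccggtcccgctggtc
*Cnn2* has 1 unaltered box, CCTTATAAGG, from 56 to 47 bases before the start. *Myl9* has the unaltered CCTAATAAGG from 161 to 152 bases before the start and the altered CCTTGTAAGG from 99 to 90. *Acta2* has 2 altered boxes, CCCTATATGG from 84 to 75 bases before the start and CCTTGTTTGG from 34 to 25. At least 2 boxes of either kind were present in 0.822% of all promoters. The windows of *Cnn1*, *Tpm1* and *Tpm2* held none of these letters. A match is a description of sequence and was not tested as a binding site.

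The 2 smooth muscle actins showed the widest range. *Acta2*, the alpha actin (chromosome 19, 34315580 to 34329826 of mm9), was at 28664, 34305 and 41744 in BC XX lines and at 4393, 1605 and 545 in BC XY lines. It was at 2802 and 3717 in BC XO lines, at 526, 1461 and 2672 in CB XX lines, and at 1058, 329 and 1472 in CB XY lines. The BC XX lines thus stood above every other line, while the remaining groups overlapped, and the BC XX mean was 16 times the BC XY mean. On the log2(value + 5) scale the difference was 4.45, and it was 5.20 without BC XY 1 and 3.70 without BC XY 3. *Actg2*, the gamma actin of gut and other visceral muscle (chromosome 6, 83462899 to 83486259), was at 1416, 2227 and 3361 in BC XX lines. It was at 115, 75.2 and 20.7 in BC XY, 144 and 176 in BC XO, 24.2, 82.9 and 113 in CB XX, and 38.4, 12.3 and 59.7 in CB XY lines. No other line came within reach of the lowest BC XX line, and BC XX exceeded BC XY by 5.13 ± 0.62 (SE) on the log2(value + 5) scale (limma, adjusted p = 0.00107), the largest difference among the 6 tested members. Without BC XY 3 it was 4.49 (limma, adjusted p = 0.00478).

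The myosin genes followed the actins. *Myh11*, the smooth muscle heavy chain (chromosome 16, 14194620 to 14291501), was at 422, 568 and 874 in BC XX lines, against 64.9, 40.7 and 29.5 in BC XY and 98.9 and 105 in BC XO lines. The CB lines were at 14.2, 36.6 and 76.4 for CB XX and at 24.2, 14.7 and 54.5 for CB XY. The log2 difference between BC XX and BC XY lines was 3.64 ± 0.50 (limma, adjusted p = 0.00186). *Myl9*, the regulatory light chain (chromosome 2, 156601156 to 156607394), was at 3022, 4274 and 3908 in BC XX, 791, 522 and 401 in BC XY, and 716 and 953 in BC XO lines. In the other cross it was at 156, 362 and 435 in CB XX and at 529, 314 and 523 in CB XY lines, which overlap. The CB XX mean was 0.698 times the CB XY mean, whereas the BC XX mean was 6.54 times the BC XY mean.

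The calponins parted from each other. *Cnn1*, the smooth muscle calponin (chromosome 9, 21903725 to 21914074), was at 3156, 3481 and 4656 in BC XX lines and at 837, 462 and 363 in BC XY, 607 and 663 in BC XO, 107, 222 and 444 in CB XX and 406, 231 and 418 in CB XY lines. BC XX exceeded BC XY by 2.82 ± 0.42 (limma, adjusted p = 0.00269). *Cnn2*, a calponin made in many cell types (chromosome 10, 79451329 to 79458807), was at 3734, 3949 and 3818 in BC XX, 3398, 2999 and 2895 in BC XY, and 4110 and 3434 in BC XO lines. It was at 1242, 1467 and 1583 in CB XX lines, below every other line, and at 3134, 2866 and 3167 in CB XY lines. The BC XX mean was thus 1.24 times the BC XY mean, and the CB XX mean 0.468 times the CB XY mean. For *Cnn2* the lines of each cross did not overlap, in opposite directions (14.6% of all genes had BC XX lines all above and 11.5% had CB XX lines all below the XY lines of their cross), and CB XY 1 alone, at 3134, also lay above every CB XX line. *Cnn3*, the acidic calponin, was at 12117 to 27800 in all lines. Its CB XX lines, at no more than 14120, lay below the BC XY lines (from 14640) and the BC XO lines (from 14600). The other pairs of groups overlapped.

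*Tagln*, an actin-binding protein early in smooth muscle (chromosome 9, 45737711 to 45744141), was at 11867, 13174 and 16206 in BC XX, 5129, 1920 and 2177 in BC XY, and 3575 and 3777 in BC XO lines. It was at 458, 1067 and 2107 in CB XX and at 2090, 842 and 1991 in CB XY lines. The BC XX lines stood above all others, by 2.29 ± 0.48 over BC XY (limma, adjusted p = 0.0153). Of the tropomyosins, *Tpm2* (chromosome 4, 43527583 to 43536637) was at 3173, 3827 and 4128 in BC XX and at 311 to 1370 in the remaining lines, with a difference of 2.01 ± 0.34 between BC XX and BC XY (limma, adjusted p = 0.00515). *Tpm1* (chromosome 9, 66870397 to 66897213) moved least of the 6. It was at 15646, 18374 and 26540 in BC XX, 12817, 8033 and 9511 in BC XY, and 13290 and 10641 in BC XO lines, and at 4138, 5755 and 6423 in CB XX and 9217, 5310 and 7643 in CB XY lines. The difference between BC XX and BC XY was 0.99 ± 0.25 (limma, adjusted p = 0.0353).

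**Figure D1:**
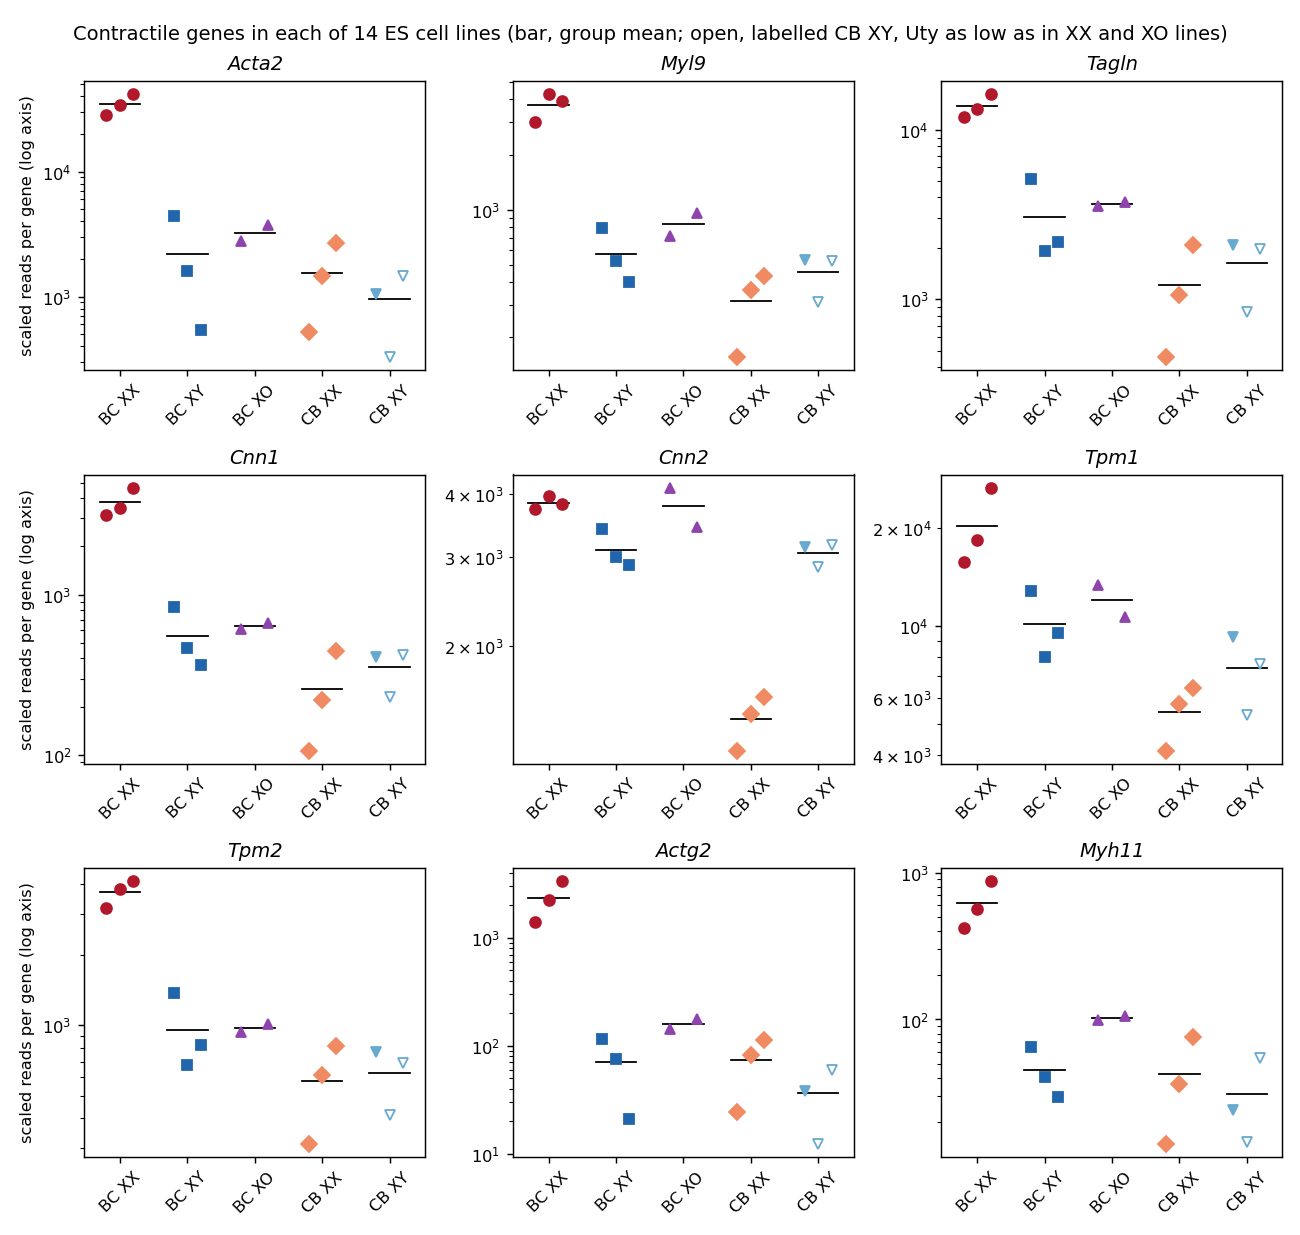
Scaled reads per gene (log axis) of the 9 contractile genes in each of 14 lines, by group, with a bar at the group mean and open symbols for CB XY 2 and 3, in which *Uty* is low (19.6 and 45.4). The BC XX lines stand above every other line for all genes except *Cnn2*, for which the CB XX lines, at 1242 to 1583, stand below.

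Between BC XX and BC XY lines, which ask for the effect of sex chromosome complement within a cross, 6 of the 6 tested members were higher in BC XX, with a median log2 difference of 2.56 against -0.04 over all genes. Among all genes tested, 4.46% were called higher in BC XX (limma, false discovery rate 0.05) and 14.6% had BC XX lines that all lay above the BC XY lines, as did the 6. The 6 are not separate from the genes that led to the list. Over the 14 lines their Pearson's r with *Acta2* was 0.863 (*Tpm1*) to 0.99 (*Actg2*), and with *Cnn2* 0.474 (*Actg2*) to 0.793 (*Tpm1*). The calls of *Tagln* and *Tpm1* rest on few lines. Without BC XX 2, BC XX 3, BC XY 2 or BC XY 3 in turn, the adjusted p was 0.0501 to 0.0819 for *Tagln* and 0.0795 to 0.16 for *Tpm1* (limma), and the differences kept their sign.

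Between CB XX and CB XY lines, 0 of the 6 were called by limma, 0 had an unadjusted p under 0.05, and 0 were called by voom on whole reads, where 2.11% of all genes were called higher and 1.46% lower. The log2 differences ran from -0.62 ± 0.42 for *Cnn1* to 0.88 ± 0.62 for *Actg2*, and the 95% interval for *Actg2* reached from -0.46 to 2.21, so that a difference of several fold was not detectable at this spread. If the lines labelled CB XY 2 and 3 were dropped, the values were -0.87 for *Cnn1* and 0.63 for *Actg2*, and again 0 were called. The interaction of complement and cross was between 1.42 ± 0.35 (*Tpm1*) and 4.26 ± 0.88 (*Actg2*) for the 6. By limma 0 of them passed the adjusted threshold, the nearest being *Cnn1* with an adjusted p of 0.0547, 6 had an unadjusted p under 0.05, and voom called 0. Over all genes 0.0738% were called for the interaction. If the lines labelled CB XY 2 and 3 were dropped, it was between 1.77 ± 0.41 (*Tpm1*) and 4.51 ± 1.02 (*Actg2*), 0 of the 6 were called by limma, with an adjusted p of 0.23 for *Cnn1*, the lowest, and 0.0123% of all genes were called. The larger XX to XY difference in BC is therefore not shown to differ from that in CB at this threshold. *Cnn1* passed it without BC XY 1 (adjusted p = 0.036), without CB XX 3 (0.0175) or without CB XY 2 (0.0429), and *Myh11* without CB XX 3 (adjusted p = 0.0435), all by limma. Averaged over both crosses, XX exceeded XY lines for 4 of the 6 (*Cnn1*, *Tpm2*, *Actg2* and *Myh11*), where 8.13% of all genes were called higher in XX. The calls of *Cnn1* and *Tpm2* were lost without BC XX 3, BC XY 2, CB XX 2 or CB XY 2 in turn and that of *Cnn1* also without BC XY 3, while *Tagln* was called without BC XY 1 or CB XX 1. With the lines labelled CB XY 2 and 3 both dropped, 2 of the 6 were called.

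**Figure D2:**
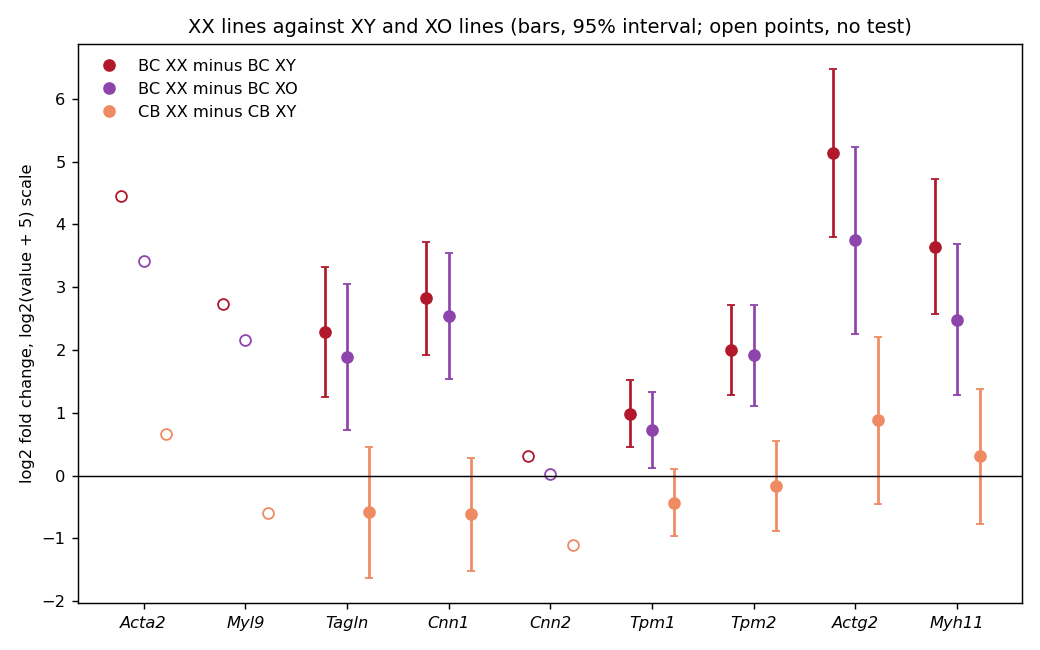
Difference on the log2(value + 5) scale between BC XX and BC XY, BC XX and BC XO, and CB XX and CB XY lines, with 95% intervals for the 6 tested genes and open points without intervals for the 3 that led to the list. The BC differences of the 6 lie between 0.73 and 5.13, while every CB interval includes 0.

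The XO lines, with a single X and no Y, lay near the XY lines. BC XX exceeded BC XO for *Actg2* (3.74 ± 0.70, limma adjusted p = 0.0179), *Cnn1* (2.54 ± 0.47, adjusted p = 0.0173), *Myh11* (2.48 ± 0.56, adjusted p = 0.0294) and *Tpm2* (1.92 ± 0.37, adjusted p = 0.0204). *Tagln* (1.89, adjusted p = 0.0595) and *Tpm1* (0.73, adjusted p = 0.136) missed the threshold, where 3.06% of all genes were called higher in BC XX. The BC XX lines lay above both BC XO lines for 6 of the 6, as they did for 23.6% of all genes. All 4 calls were lost without BC XO 1, BC XO 2 or BC XX 3 in turn. Without BC XX 2 those of *Tpm2* and *Myh11* were lost, and *Tagln* was called without BC XY 1, CB XX 1 or CB XX 3. Between BC XO and BC XY lines 0 of the 6 were called by limma, with 0 at an unadjusted p under 0.05 and 0 by voom, and 0.00615% of all genes. This comparison shares its lines with those above. *Actg2* and *Myh11* were higher in each BC XO than in each BC XY line, at 144 and 176 against 20.7 to 115 and at 98.9 and 105 against 29.5 to 64.9, a layout that 9.01% of all genes showed.

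Across crosses at the same complement, BC XX exceeded CB XX for 6 of the 6, with a median difference of 3.82, where 4.25% of all genes were called higher in BC XX and 14.2% had BC XX lines all above the CB XX lines, as did the 6. *Actg2* differed by 5.04 ± 0.62 (limma, adjusted p = 0.00136), or 4.44 without CB XX 1 (adjusted p = 0.00742), and *Tpm1* by 1.88 ± 0.25 (limma, adjusted p = 0.00146). *Acta2* differed by 4.76, or 4.12 without CB XX 1. *Cnn2* was 2.68 times as high in BC XX as in CB XX lines on the means. BC XY lines had higher means than CB XY lines for all 6, by 0.46 to 0.87 on the log2 scale, but 0 were called by limma, 0 had an unadjusted p under 0.05 and 0 were called by voom, against 0.0922% of all genes called higher. *Cnn2* had a BC XY mean 1.01 times that of CB XY. If the lines labelled CB XY 2 and 3 were dropped, the BC XY to CB XY differences were 0.11 to 0.71, and again 0 of the 6 were called.

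Per kilobase of merged exon the order of the genes changed between groups. In BC XX lines *Acta2* came first with 19600 ± 3683 (SD, n = 3) scaled reads per kilobase, followed by *Tagln* with 8669 ± 1403, *Myl9* with 3214 ± 554 and *Tpm1* with 3113 ± 874. *Cnn1*, *Cnn2*, *Actg2* and *Tpm2* lay between 1275 and 1590 and did not differ beyond their spread, apart from *Cnn2* and *Tpm2*, and *Myh11* came last with 93.7 ± 34.8. In CB XY lines *Cnn2* came first with 1242 ± 67.2 per kilobase, *Tpm1* and *Tagln* did not differ from it beyond their spread, and *Myh11* was again last. Within gene families on the same scale, *Acta2* made up 16.9% to 26.8% of the reads of 6 actins in BC XX lines and 0.244% to 2.86% in all remaining lines. *Tagln* made up 88.6% to 92.4% of 3 transgelins in BC XX lines and as little as 20.4% in a CB XX line. *Cnn1* made up 13.2% to 16.5% of 3 calponins in BC XX lines and at most 3.91% elsewhere, while *Cnn2* made up 7.09% to 8.85% in CB XX and 11.1% to 16.2% in CB XY lines. The actin genes are nearly identical over much of their coding sequence, and how reads shared by copies or strands were assigned is not given in the sources used here, so levels of *Acta2*, *Actg2* and the muscle actin *Acta1* are uncertain to that extent.

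**Figure D3:**
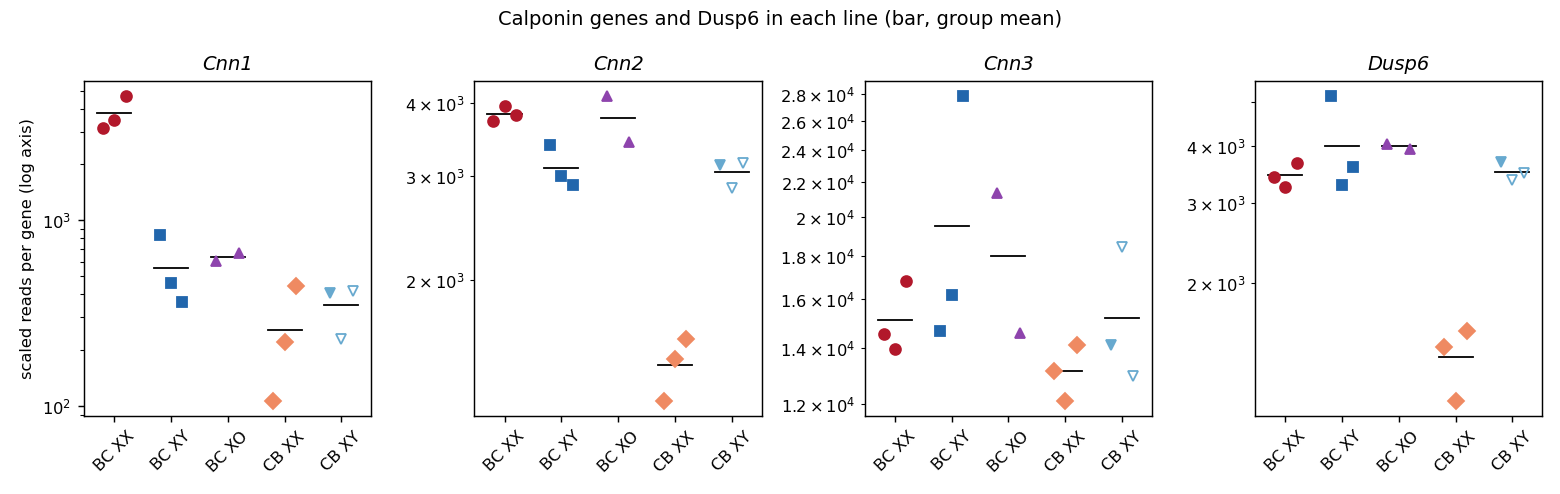
Scaled reads per gene (log axis) of *Cnn1*, *Cnn2*, *Cnn3* and *Dusp6* in each line, with a bar at the group mean and open symbols for CB XY 2 and 3, in which *Uty* is low (19.6 and 45.4). *Cnn1* is high in BC XX lines, whereas *Cnn2* and *Dusp6* are low in CB XX lines, *Dusp6* at 1100 to 1567.

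Other genes of the contractile and actin-anchoring apparatus rose in part with the members. Of 26 such genes, 12 were higher in BC XX than in BC XY lines and 0 lower, with a median difference of 0.78, where 4.46% of all genes were called higher. They included *Lmod1*, a leiomodin that nucleates actin filaments (3.63 ± 0.39, limma adjusted p = 0.000571), *Mylk*, the kinase that phosphorylates the regulatory light chain (2.57 ± 0.42, adjusted p = 0.00463), and *Cald1*, caldesmon (2.36 ± 0.38, adjusted p = 0.00419). *Des*, desmin, was at a mean of 171 in BC XX and 157 in BC XY lines, and *Smtn*, smoothelin, at 506 and 806, neither called. Between CB XX and CB XY lines 1 of the 26 was higher, *Tns1*, a tensin at focal adhesions (1.56 ± 0.32, limma adjusted p = 0.017), and 1 was lower, *Pdlim3* (-2.18 ± 0.54, adjusted p = 0.0388). Of all genes, 2.11% were called higher and 1.46% lower in CB XX, so these counts are near the shares over all genes. Of 14 related genes used outside smooth muscle, 2 were higher in BC XX than in BC XY lines, *Acta1* (1.50 ± 0.37, limma adjusted p = 0.0327) and *Tpm4* (0.89 ± 0.22, adjusted p = 0.0339), beside the 4.46% of all genes. The cytoplasmic actin *Actb* had means of 101700 and 108700 in these groups.

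Of 19 genes for serum response factor, its coactivators and other regulators around them, 1 was higher in BC XX than in BC XY lines, *Elk3*, an ETS partner of serum response factor (1.30 ± 0.29, limma adjusted p = 0.02). This count is near the 4.46% of all genes that were called higher in BC XX. *Srf* itself was at 1122 to 1999.5 in BC XX and 2083 to 2939 in BC XY lines, and was not called (adjusted p = 0.12). *Myocd*, the smooth muscle and cardiac coactivator, was near the low end of the table, with means of 28.6 and 14.7 in these groups. Of 8 immediate early targets of serum response factor 1 was higher, *Ier3* (1.24 ± 0.31, limma adjusted p = 0.0332), beside the same 4.46% of all genes. *Fos* and *Egr1* were not called. Of 12 genes of the TGF-beta pathway, which induces contractile genes in fibroblasts, 3 were higher in BC XX than in BC XY lines and 9 were not called. Among the ligands, *Tgfb3* (3.07 ± 0.57, limma adjusted p = 0.00858) and *Tgfb2* (1.71 ± 0.41, adjusted p = 0.0279) were higher in BC XX lines, and *Tgfb1*, with means of 118 and 148, was not called. Between CB XX and CB XY lines 0 of the 12 were higher and 1 was lower, where 1.46% of all genes were called lower. *Tgfb1* had means of 95.5 and 237.5 in these CB groups.

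Fibroblast markers moved with the same lines. Of 24 markers, 17 were higher in BC XX than in BC XY lines and 0 lower, with a median log2 difference of 2.35, led by *Postn*, periostin (6.07 ± 0.71, limma adjusted p = 0.000993). The other 7 were not called, and *Pdgfra* had a lower mean in BC XX (329) than in BC XY lines (577). Over all genes 4.46% were called higher. The summed level of the 24 was 147294 to 343925 in BC XX, 54634 to 70433 in BC XY, 69856 to 97663 in BC XO, 61048 to 80943 in CB XX and 59105 to 70899 in CB XY lines. Much of each sum is *Fn1*, at 65530 to 148200 in BC XX, 37130 to 47490 in BC XY, 43970 to 71140 in BC XO, 28220 to 44850 in CB XX and 37230 to 46020 in CB XY lines. No marker was at or under 3 reads in any line. The Y-linked *Ddx3y* was at 328, 486 and 1024 in the BC XX lines and at no more than 102 in either BC XO line. It was at 49.75 to 196.4 in CB XX, 1115 to 2268 in BC XY and 27.02 to 1084 in CB XY lines. Its order over the 3 BC XX lines was that of their fibroblast marker sums, but 3 lines are too few to show a relation, and none was tested. In bulk RNA, a change in the share of such cells and a change in RNA per cell cannot be told apart, and the part of the feeder layer in the level of the contractile genes was not tested.

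With the mean log2 level of the 24 markers as a covariate, the difference between BC XX and BC XY was called for 0 of the 6 by limma. Of all 16261 genes, 8 were then called in either direction and 0% higher in BC XX, against 927 called without the covariate. It was 1.92 ± 0.51 for *Actg2* (limma, adjusted p = 0.219), 0.91 ± 0.48 for *Cnn1* (adjusted p = 0.627) and 0.01 ± 0.52 for *Tagln* (adjusted p = 0.999). The marker level itself did not overlap between these groups, at 10.80 to 12.01 in BC XX and 8.52 to 9.66 in BC XY lines, so that the covariate and the complement are hard to tell apart here. At equal marker level BC XY exceeded CB XY for 4 of the 6, *Actg2* (1.28 ± 0.29, limma adjusted p = 0.0259), *Tagln* (1.23 ± 0.29, adjusted p = 0.029), *Tpm2* (0.83 ± 0.21, adjusted p = 0.0345) and *Tpm1* (0.64 ± 0.17, adjusted p = 0.0389), where 2.37% of all genes were called higher in BC XY. Only the mean of the 24 markers is made equal here. Without the covariate, their log2 differences between BC XY and CB XY lines ran from -2.04 to 0.70, with 0 called. *Loxl1* had means of 153.5 in BC XY and 517.4 in CB XY lines, and *Lox* 755.3 and 489. How far the choice of markers sets these differences was not tested. The covariate raised the number of genes called between BC XY and CB XY in either direction from 104 to 1056. If the lines labelled CB XY 2 and 3 were also dropped, 0 of the 6 were called (limma, lowest adjusted p = 0.141 for *Actg2*), the differences were 0.44 ± 0.25 (*Tpm1*) to 1.51 ± 0.45 (*Actg2*), and 0.0184% of all genes were called higher. With the covariate in all lines, BC XX exceeded CB XX by 2.73 ± 0.38 for *Cnn1* (limma, adjusted p = 0.00592), where 0.0861% of all genes were called higher in BC XX. The marker level did not overlap between these groups either, at 8.96 to 10.30 in CB XX lines, so this difference is not one at a marker level that both groups reach. *Tagln* lay 1.97 to 2.73 log2 units above the mean marker level in all 8 BC lines and -0.23 to 1.29 in the 6 CB lines, which did not overlap. The same held for *Myh11*, at -3.53 to -2.07 and at -4.92 to -3.79, and for *Cnn1*, at -0.33 to 0.82 and at -2.47 to -0.61. The crosses overlapped for the other 3 tested members, *Actg2*, *Tpm1* and *Tpm2*. Of all genes, 0.0922% lay higher in every BC than in every CB line on this scale.

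**Figure D4:**
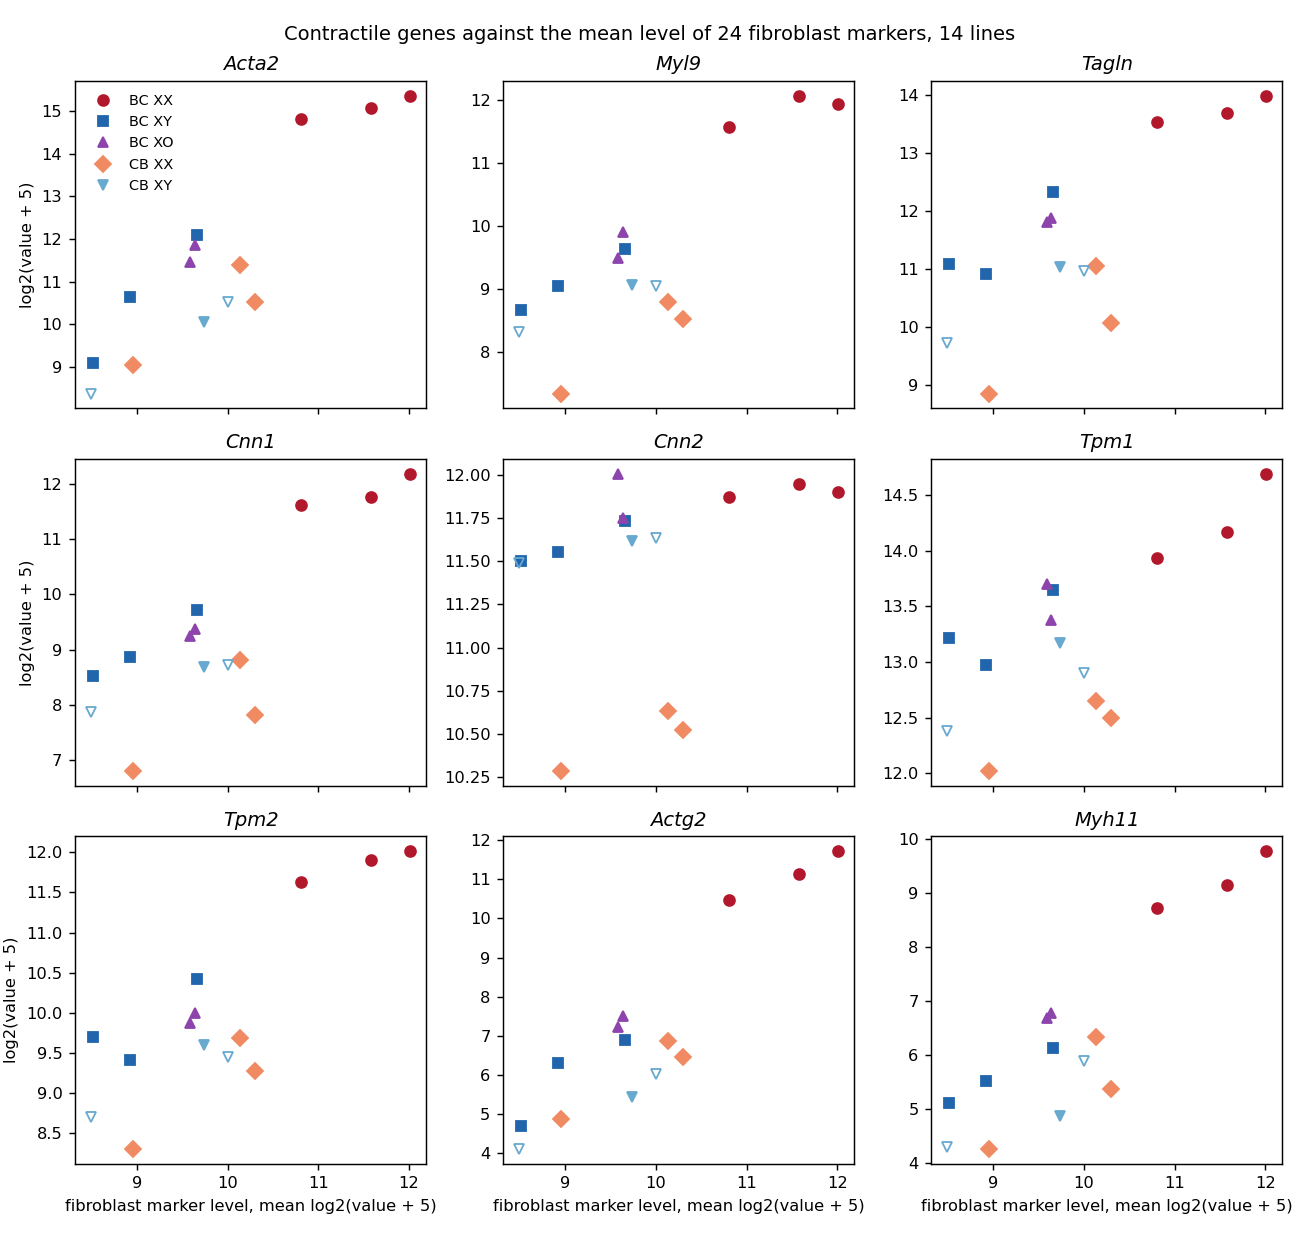
Level of each contractile gene, log2(value + 5), against the mean log2(value + 5) of 24 fibroblast markers in 14 lines, with open symbols for CB XY 2 and 3, in which *Uty* is low (19.6 and 45.4). BC XX lines lie at marker levels of 10.80 to 12.01, above all other lines. *Tagln* lies higher in BC than in CB lines at similar mean marker levels.

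Over all 14 lines Pearson's r with the marker level was 0.708 (*Tpm1*) to 0.915 (*Actg2*) for the 6 tested members. All 6 passed an adjusted p of 0.05 by permutation test, and 5 did by Spearman's rho. Without the 2 lines farthest from the median level, r was 0.377 (*Tpm1*) to 0.791 (*Actg2*). By r, 6 passed within the BC lines and 1 within the CB lines. Because the BC XX lines stood apart, the relation was also examined in the 11 remaining lines, for 9 members. There 0 of the 6 tested members passed an adjusted p of 0.05. For *Actg2* Pearson's r was 0.694 (permutation test, two-sided, p = 0.0199, adjusted p = 0.12 over the 6) and Spearman's rho 0.473 (permutation p = 0.145), and without the 2 lines farthest from the median level r was 0.343. *Cnn2* had r = -0.157 and rho = -0.018, as a description. These values are over lines of 4 groups that differ in level. For the deviations from the group means in the same lines, r was higher, from 0.765 for *Cnn2* to 0.933 for *Actg2* over the 9 members.

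*Cnn2* also stood apart in the genes most like it, found by the correlation of log2(value + 5) with each of 16252 tested genes over the 14 lines, which share their libraries and groups. The nearest were *Tes*, a focal adhesion protein (r = 0.945), *Sema3e*, a semaphorin (0.922), and *Dusp6*, a phosphatase that acts on ERK and is induced by it (0.918). *Dusp6* was at 1447, 1100 and 1567 in CB XX lines and at 3243 to 5137 in all others, and *Tes* at 665, 762 and 1038 in CB XX and 1438 to 2379 in all others. For the other members the nearest genes were *Lgals1*, galectin-1, for *Acta2* (0.98), the protease gene *Prss23* for *Myl9*, *Tagln*, *Cnn1* and *Tpm2* (0.953 to 0.977), *Nedd9* for *Tpm1* (0.96), *P4ha3*, a collagen prolyl hydroxylase subunit, for *Actg2* (0.983) and *Postn* for *Myh11* (0.981).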

How the data were processed

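RNA of 14 ES cell lines was analysed, and the labels gave the groups. The CB XX columns match their group but not single titles, and are numbered in column order. The deposited file holds, for each gene and line, a signal of reads that the authors had brought to a common depth, with sums of 28150946 to 30657803. Reads had been aligned to mm9 with TopHat2 and compared with Cufflinks and Cuffdiff. Versions, annotation and use of strand are not given in the sources used here. In each line 97.3% to 98.6% of values are whole multiples of 1 step (within 0.1 step), taken as 1 read, but not all are, so the count tests intended for whole reads were not run and voom was used instead. Lines were prepared in batches that the sources do not assign, which were not modelled.

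Genes with a value of 10 or more in at least 2 lines were tested as log2(value + 5) with limma 3.58.1 in R 4.3.3 (5 groups, 14 lines, trended variance, Benjamini-Hochberg adjustment over 16261 genes, threshold 0.05). A fold change on this scale understates that of low genes. Left out were 15 genes listed at 0 throughout a group and at 100 or more elsewhere. Replicates are lines from separate blastocysts. Python 3.11.15 joined the tables and ran 100000 permutations. Gene positions are those of NCBIM37 (mm9), and promoters those of RefSeq GRCm38.p6.

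The members and lists were chosen with earlier results of these data known. Named are the 9 members, up to 6 called genes per list and comparison with the largest change, genes that define a list, and the 5 genes most like each member. *Acta2*, *Myl9* and *Cnn2* are given no p in group comparisons, because these share lines with the contrast that chose them. Same-numbered lines did not deviate together (correlations of -0.494 to 0.27), so no block was used. Alternatives were another pseudocount (1 or 20), other filters and scalings, the groups of a comparison alone, a replicate block, each line left out, and the fibroblast marker level as a covariate. The steps were tested on simulated data. Some genes of the lists are not reported here.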

Additional observations from a re-analysis of the deposited data

Results flagged for a closer look

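*Cnn2* was singled out because the XX lines of the BC cross all lay above their XY lines, at 3734 to 3949 against 2895 to 3398, while the XX lines of the CB cross all lay below theirs, at 1242 to 1583 against 2866 to 3167. The difference between these XX to XY differences is 1.41 on the log2(value + 5) scale. *Cnn2* was listed for this pattern, so the difference was not tested.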

How the results depend on the processing

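Of the 6 tested members, the number called in BC XX against BC XY fell from 6 to 0 with the fibroblast marker level as a covariate. For the mean of both crosses it was 4, and 2 to 5 without single lines, 2 with the lines labelled CB XY 2 and 3 left out, and 0 with the covariate. For BC XX against BC XO it was 4, and 0 with the replicate block, 0 with the covariate and 0 to 5 without single lines. For the interaction it was 0, and 3 with a pseudocount of 20, 1 with TMM factors, 1 with genes listed at 0 kept in and 0 to 2 without single lines. For BC XY against CB XY it was 0, 4 with the covariate, and 0 with the covariate and without the lines labelled CB XY 2 and 3. Correlations of the 6 with the marker level passed for 6 over all lines (5 by Spearman's rho), 6 within the BC lines (6 by rho), 1 within the CB lines (0 by rho, lowest adjusted p = 0.1) and 0 in the 11 lines other than BC XX. This last set of lines, voom, and the covariate without those CB XY lines were chosen after seeing the data.

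Directions changed as follows. With the covariate, BC XX against BC XY was -0.14 for *Tpm1*, and BC XX against BC XO -0.13 for *Tpm1*. CB XX against CB XY was -0.059 for *Myh11*. The mean of both crosses was -0.47 for *Tagln*, -0.0057 for *Cnn1* and -0.37 for *Tpm1*. BC XO against BC XY was -0.14 for *Tagln*, -0.17 for *Cnn1*, -0.0082 for *Tpm1* and -0.28 for *Tpm2*. Without single lines CB XX against CB XY ran from -0.46 (without CB XX 3) to 0.23 (without CB XX 1) for *Tpm2*, and from -0.20 (without CB XX 3) to 0.84 (without CB XX 1) for *Myh11*, and BC XO against BC XY from -0.13 (without BC XY 2) to 0.38 (without BC XY 1) for *Tpm2*. The cause was not tested. The replicate block left 6 of 6 called in BC XX against BC XY. The lines share only a number. No paired analysis was possible because the numbers of the CB XX columns do not match their titles, for the comparisons that use them. The planned tests on recovered counts were not run. *Actg2* and *Myh11* rest on under 20 reads in several CB lines.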
